A study of Mus musculus with 8 samples.

Results

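The 9 genes described here encode cargo and membrane proteins of the late neutrophil granules, namely the specific and gelatinase granules. They were taken by symbol (Ltf, Camp, Ngp, Lcn2, Chil3, Cd177, Fcnb, Mmp8 and Mmp9) from a table of 15576 gene rows, and all 9 were present. The table holds bulk RNA-seq of sorted leukemic stem cells (LSCs) from the bone marrow of C57BL/6 mice with chronic myeloid leukemia (CML). The animals were BCR-ABL×SCL-tTA double transgenics, a tetracycline-off model whose transactivator is driven by the SCL promoter, which directs BCR-ABL to stem cells when the antibiotic is absent. 4 libraries were from untreated CML mice (CML 1, 2, 3 and 5, as the columns are numbered) and 4 from CML mice given the tyrosine kinase inhibitor imatinib (CML-TKI 1 to 4), at 400 mg/kg by gavage on alternate days for 4 weeks according to the labels, whereas the paper's legend for this comparison gives a lower dose. All 8 libraries carry 1 gate in the labels, Lin-Sca1+cKit+Flt3-CD150-CD48+, whereas the paper defines LSCs by the opposite CD150 and CD48 signs. The ages of the mice, and whether the libraries of a group came from separate mice, are not given in the sources used here, so the p-values below measure only the spread between these libraries. The comparison asks how the LSCs that persist under imatinib differ from untreated LSCs.

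As background, neutrophil precursors make their granules in waves. Azurophil granules with myeloperoxidase and the serine proteases come first, specific granules with lactoferrin, cathelicidin and lipocalin follow at the myelocyte stage, and gelatinase granules come last, in more mature cells. C/EBPε and GFI1 are the transcription factors known for the step to specific granules, and loss of C/EBPε leaves neutrophils without them. Stem cells are not known for these proteins. In marrow their transcripts are known from granulocyte precursors, and not every one of them is confined to that lineage.

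The stretch of DNA just upstream of the start sites is shown for 4 of the genes, as examples of genes that were called and of one that was not (Fcnb and Chil3, with the largest fold changes of the 9, Mmp8, whose groups did not overlap, and Ltf, which missed the threshold). The windows are the 250 bases before the start in a RefSeq promoter table on GRCm38.p6. For Fcnb that start lies 32 bases inside the RefSeq gene span, and only the 218 bases outside the span are printed. The sequences are printed 5′ to 3′ on the gene's strand, with capitals marking matches to a C/EBP motif (TTGCNNAA), a STAT motif (TTCNNNGAA) or a PU.1 core (GAGGAA) on either strand. They lie at chr2:28084911-28085128 on the minus strand for Fcnb, chr3:106167565-106167814 on the minus strand for Chil3, chr9:7558179-7558428 on the plus strand for Mmp8 and chr9:111019042-111019291 on the plus strand for Ltf.
Fcnb: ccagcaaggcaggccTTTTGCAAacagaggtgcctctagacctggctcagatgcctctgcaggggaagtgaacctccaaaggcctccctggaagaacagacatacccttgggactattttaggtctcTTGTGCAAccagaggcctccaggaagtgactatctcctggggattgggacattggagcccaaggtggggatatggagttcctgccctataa
Chil3: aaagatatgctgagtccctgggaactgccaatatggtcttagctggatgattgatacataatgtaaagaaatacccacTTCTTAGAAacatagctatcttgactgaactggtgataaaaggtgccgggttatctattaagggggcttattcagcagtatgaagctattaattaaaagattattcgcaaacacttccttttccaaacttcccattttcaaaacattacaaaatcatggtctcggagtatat
Mmp8: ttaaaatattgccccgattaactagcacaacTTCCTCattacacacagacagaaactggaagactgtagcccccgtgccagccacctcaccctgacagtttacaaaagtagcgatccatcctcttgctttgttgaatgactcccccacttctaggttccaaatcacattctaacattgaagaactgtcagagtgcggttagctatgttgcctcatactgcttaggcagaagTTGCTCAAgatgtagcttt
Ltf: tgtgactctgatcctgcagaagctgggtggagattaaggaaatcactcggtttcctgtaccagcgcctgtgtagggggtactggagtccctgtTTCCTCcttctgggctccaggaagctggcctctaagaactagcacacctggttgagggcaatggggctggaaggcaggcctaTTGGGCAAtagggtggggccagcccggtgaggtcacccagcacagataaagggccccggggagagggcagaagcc
The RefSeq promoter table matched 8 of the 9 genes, all but Mmp9. The C/EBP motif occurred in 5 of these 8 windows (Fcnb, Lcn2, Ltf, Mmp8 and Ngp), against 9.56% of 32851 RefSeq promoters of the same length. The Fcnb window held 2 C/EBP matches, the nearer ending 116 bases before the start of the promoter table, and the Mmp8 window held 1 match that ended 12 bases before the start. The STAT motif occurred in 1 of the 8 windows, that of Chil3, against 7.02% of all promoters. The PU.1 core occurred in 4 of 8 (Cd177, Lcn2, Ltf and Mmp8), against 23.3% of all promoters. None of these motifs overlapped another in the 4 windows printed. A match says that the letters are present in the window, and nothing about binding.

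The genes lie on 4 chromosomes. Camp (chromosome 9, 109847377 to 109849456), Ngp (chromosome 9, 110419808 to 110423012) and Ltf (chromosome 9, 111019292 to 111042766) sit in a row, with transcription starts 570.4 kb apart for Camp and Ngp and 599.5 kb apart for Ngp and Ltf, and Mmp8 lies elsewhere on the same chromosome (7558429 to 7568486). Lcn2 (32384637 to 32387739), Fcnb (28076479 to 28084910) and Mmp9 (164940326 to 164955850) are on chromosome 2, Chil3 (106147554 to 106167564) is on chromosome 3 and Cd177 (24743983 to 24760334) on chromosome 7. Chil3 has a close relative, Chil4, whose transcript is 94.7% identical over 1535 aligned bases, so reads assigned to Chil3 are uncertain in origin. Chil4 was not analysed here.

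Some libraries stood apart before any gene was considered. Library totals ran from 4939644 to 8620101 counts in CML LSCs and from 1041552 (CML-TKI 3) to 5104268 in CML-TKI LSCs, and 3 counts, the floor used here, correspond to 0.348 to 2.88 CPM (counts scaled to the library's size). On the first principal component of log2 CPM, which held 52.5% of the variance, the CML libraries had scores of -74.4 to -69.3, CML-TKI 1 a score of -19.2 and the other CML-TKI libraries scores of 70.1 to 118.8. Hemoglobin genes took 6.62% of the counts of CML-TKI 3 and at most 0.0428% of any other library. The B cell markers summed to 235.6 CPM in CML-TKI 3 against at most 22.03 CPM elsewhere. Stem cell markers of the sort (12 genes, 11 tested) summed to between 2135 and 2630 CPM in CML and between 321.4 and 722.3 CPM in CML-TKI libraries. None of the 11 was called higher and 5 were called lower, where 3.93% of all genes tested were called lower. Kit, a receptor used in the gate and named after its values were seen, had 764 to 1023 CPM in CML and 194 to 290.4 CPM in CML-TKI libraries. Ly6a, for Sca1 of the same gate and also named after its values were seen, overlapped between the groups. It had 33.2 to 38.5 CPM in CML libraries and 44.3, 9.61, 8.77 and 1.56 CPM in CML-TKI 1 to 4, and was not called by edgeR (adjusted p = 0.373). How these differences bear on the granule genes was not tested. In bulk RNA, more cells of a kind and more transcript per cell cannot be told apart.

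Most of the late granule genes were higher in CML-TKI than in CML LSCs, and unevenly so between libraries. Called at an adjusted p under 0.05 by edgeR's quasi-likelihood test, 7 of the 9 were higher in CML-TKI LSCs and 0 lower, where 6.29% of the 11937 genes tested were called higher and 3.93% lower. By unadjusted p, 8 of the 9 genes were under 0.05 and higher, as were 13.7% of all genes tested. DESeq2 called 8 of the 9 higher, Ltf included, and 0 lower, where it called 9.67% of all genes higher, and limma-voom with quality weights called 7 of the 9 higher and 0 lower, where it called 10.5% of all genes higher. Ltf and Mmp9 were not called by edgeR. The median log2 fold change of the 9 genes was 2.63, where the median over all genes tested was -0.00026. The 4 genes whose CML-TKI libraries all lay above all CML libraries were Lcn2, Chil3, Fcnb and Mmp8, against 10.3% of all genes tested. All 9 genes passed the count filter, but Fcnb and Mmp8 did not reach its 2.01 CPM in every CML library and depended on CML-TKI libraries to be tested, which favours a call. With no count filter edgeR still called Fcnb (adjusted p = 0.00222) and Mmp8 (0.0356), but no longer Camp (0.0561) or Cd177 (0.0515). Every gene had counts in every library, from 2 (Fcnb in CML 1) to 1442 (Chil3 in CML-TKI 2).

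**Figure D1:**
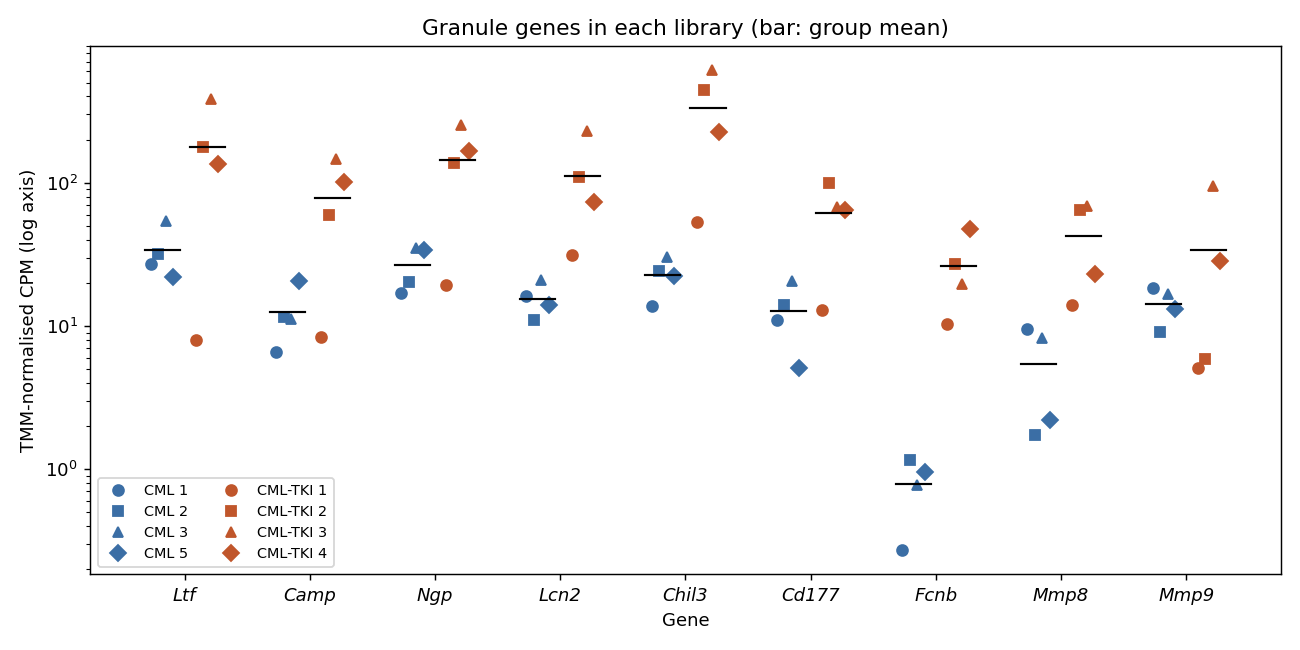
TMM-normalised CPM (log axis) of each of the 9 genes in each of the 8 libraries, blue for CML and orange for CML-TKI, with symbol shapes for the library numbers and black bars for group means. CML-TKI 1 lies apart from the rest of its group for several genes, at 7.98 CPM for Ltf against 136.1 to 386.9 CPM in the other CML-TKI libraries, while all CML-TKI points of Fcnb (10.3 to 47.3 CPM) lie above all CML points (0.272 to 1.16 CPM).

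The largest fold changes of the 9 genes were in Fcnb and Chil3, both for lectins. Fcnb encodes ficolin B, a secreted pattern recognition lectin that binds sugars on microbes. It was at 0.272, 1.16, 0.773 and 0.962 CPM in CML 1, 2, 3 and 5 (2, 6, 4 and 7 counts) and at 10.3, 27.3, 19.7 and 47.3 CPM in CML-TKI 1 to 4 (54, 88, 18 and 182 counts). The CML libraries were thus near the floor of 3 counts while every CML-TKI library was above it. Its log2 fold change was 5.03 (SE 0.66, 95% interval 3.55 to 6.50, adjusted p = 0.00185), from 0.791 ± 0.380 to 26.2 ± 15.8 CPM (SD, n = 4 per group). Since a few counts set the CML level, the size of this fold is less certain than its direction.

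Chil3 encodes the chitinase-like protein Ym1. Its level was 13.9, 24.3, 30.3 and 22.3 CPM in the CML libraries and 52.99, 446.9, 612.7 and 225.6 CPM in CML-TKI 1 to 4. The lowest CML-TKI library, CML-TKI 1, was above the highest CML library, and the other 3 were many times higher. The log2 fold change was 3.88 (SE 0.66, 95% interval 2.41 to 5.34, adjusted p = 0.00624), from 22.7 ± 6.80 to 334.5 ± 245.7 CPM (SD, n = 4 per group).

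Of the genes for iron withholding, Lcn2 was called and Ltf was not. Lcn2 encodes lipocalin 2, which captures the siderophores with which bacteria take up iron. It had 16.2, 11.002, 20.9 and 14.02 CPM in the CML libraries and 31.5, 110.02, 230.2 and 73.1 CPM in CML-TKI 1 to 4. The groups did not overlap, and CML-TKI 1 was the lowest of its group. Lcn2 rose by 2.82 on the log2 scale (SE 0.54, 95% interval 1.61 to 4.03, adjusted p = 0.0112).

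Ltf encodes lactoferrin, the iron-binding protein used to define specific granules. It had 27.2, 32.04, 54.1 and 22.1 CPM in the CML libraries and 7.98, 177.6, 386.9 and 136.1 CPM in CML-TKI 1 to 4. In 3 of the 4 CML-TKI libraries it was above the highest CML library, and in CML-TKI 1 it was below the lowest. The log2 fold change was 2.37 (SE 0.82, 95% interval 0.53 to 4.21), and it did not pass the test (adjusted p = 0.101). Without CML-TKI 1 it was 2.77, with an adjusted p of 0.00229.

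The antimicrobial peptide genes Camp, for cathelicidin, and Ngp, for a neutrophilic granule protein of the cystatin and cathelicidin group, were both called higher. Camp had 6.54, 11.6, 11.2 and 20.8 CPM in the CML libraries and 8.36, 59.8, 145.8 and 101.2 CPM in CML-TKI 1 to 4. Ngp had 16.9, 20.3, 34.8 and 33.96 CPM in the CML libraries and 19.2, 138.2, 253.2 and 166.2 CPM in CML-TKI 1 to 4. For both, CML-TKI 1 lay within the range of the CML libraries and the other 3 lay above it. Camp rose by 2.63 on the log2 scale (SE 0.72, adjusted p = 0.0457) and Ngp by 2.43 (SE 0.63, adjusted p = 0.0370), both close to the threshold.

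Cd177 encodes a membrane glycoprotein of specific granules and of the neutrophil surface. It had 11.03, 14.1, 20.5 and 5.09 CPM in the CML libraries and 12.9, 99.8, 67.95 and 64.3 CPM in CML-TKI 1 to 4. CML-TKI 1 again lay among the CML libraries, and CML-TKI 2 was the highest of the 8. The log2 fold change was 2.27 (SE 0.60, adjusted p = 0.0426), from 12.7 ± 6.41 to 61.2 ± 35.9 CPM (SD, n = 4 per group).

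Of the matrix metalloproteinase genes, Mmp8 was called and Mmp9 was not. Mmp8 encodes neutrophil collagenase, a specific granule enzyme. It had 9.53, 1.74, 8.31 and 2.20 CPM in the CML libraries and 14.1, 64.5, 69.05 and 22.9 CPM in CML-TKI 1 to 4. The groups did not overlap, with the closest values in CML-TKI 1 and CML 1. Mmp8 rose by 2.94 on the log2 scale (SE 0.72, 95% interval 1.35 to 4.54, adjusted p = 0.0293).

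Mmp9 encodes gelatinase B, the enzyme that gives the gelatinase granule its name. It had 18.4, 9.07, 16.8 and 13.1 CPM in the CML libraries and 5.13, 5.89, 95.4 and 28.4 CPM in CML-TKI 1 to 4. CML-TKI 1 and 2 were below every CML library and CML-TKI 3 and 4 above every one, so the CML-TKI libraries lay on both sides of the untreated group. The log2 fold change of 1.17 (SE 0.83, 95% interval -0.67 to 3.01) did not pass the test (adjusted p = 0.414), and without CML-TKI 3 it was -0.12. Mmp9 was the gene with the least change, and the values do not show that its levels were equal.

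The exact two-sided permutation test over the 70 relabelings of 4 against 4 libraries, whose smallest possible p is 0.0286, was run on each gene as a second test. The exact permutation p was 0.0286 for Fcnb, Chil3, Lcn2 and Mmp8. For Cd177 the exact permutation p was 0.0857, for Camp and Ngp 0.114 each, for Ltf 0.286 and for Mmp9 0.8. By this test Camp, Ngp and Cd177, which edgeR called, did not pass 0.05.

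**Figure D2:**
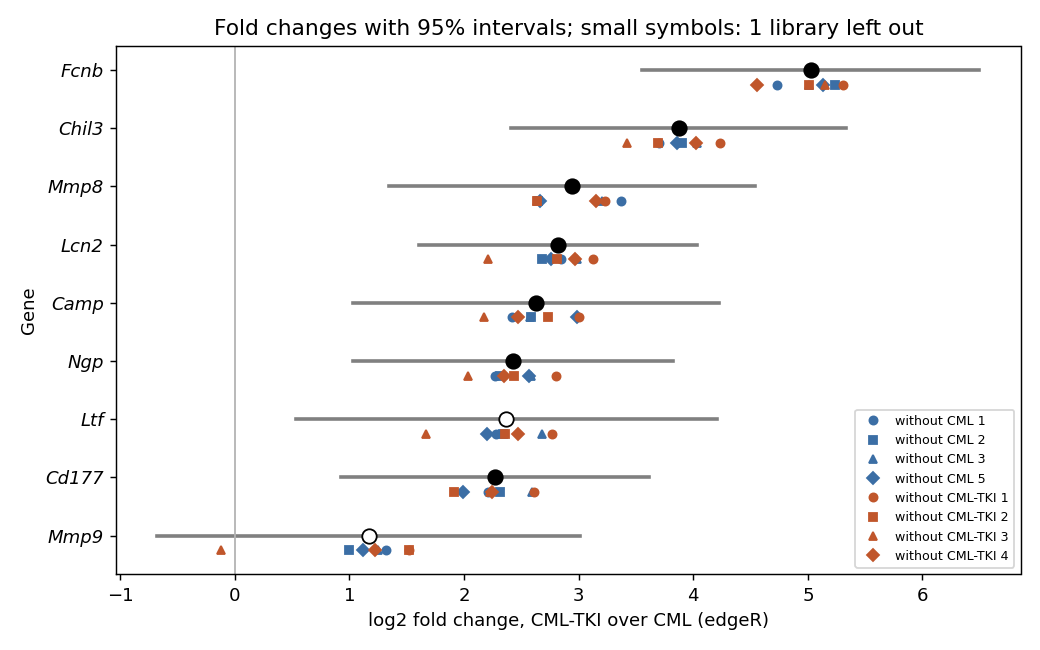
Log2 fold change of each gene (CML-TKI over CML) with its 95% interval from edgeR, filled circles for genes past the threshold and open circles for those that were not, and small symbols for fits with 1 library left out. Fcnb (5.03) and Chil3 (3.88) lie furthest from 0, and leaving out CML-TKI 3 moves Mmp9 to -0.12.

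Several calls were lost with 1 library fewer, from either group. In the 8 fits that each left out 1 library, Fcnb, Chil3 and Lcn2 were called in 8 of 8. Mmp8 was called in 2 of 8, and Camp, Ngp, Cd177 and Ltf in 1 of 8, the fit without CML-TKI 1, which called 8 of the 9 genes, where 9.64% of all genes were called higher. Omission of any CML library (1, 2, 3 or 5), of CML-TKI 2 or of CML-TKI 3 left 3 of the 9 called, and omission of CML-TKI 4 left 4. Over all genes the share called higher was then 2.97%, 3.12%, 3.34% and 4.5% without CML 1, 2, 3 and 5, and 4.57%, 5.62% and 5.3% without CML-TKI 2, 3 and 4. The log2 fold change without 1 library ran from 4.56 to 5.31 for Fcnb, from 3.43 to 4.23 for Chil3, from 2.21 to 3.13 for Lcn2 and from 2.63 to 3.37 for Mmp8, so none of these came near 0. It ran from 2.18 to 3.01 for Camp, from 2.04 to 2.80 for Ngp, from 1.91 to 2.62 for Cd177 and from 1.67 to 2.77 for Ltf. With both CML-TKI 1 and CML-TKI 3 left out, an alternative chosen after seeing the data, 8 of the 9 genes were called, where 10.5% of all genes were called higher.

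Seen by library, CML-TKI 1 held the fewest of the changes. Only 4 of the 9 genes were above the highest CML library there (Fcnb, Chil3, Lcn2 and Mmp8), against 8 in CML-TKI 2 and 9 in each of CML-TKI 3 and CML-TKI 4. The share of all genes above their highest CML library was not computed for single libraries, so these counts are a description. In CML-TKI 1, Fcnb was 12.96 times the CML mean but Ltf was 0.235 times and Mmp9 0.358 times. The 9 genes summed to between 119.98 and 197.7 CPM in the CML libraries and to 162.4, 1130, 1881 and 865.01 CPM in CML-TKI 1 to 4. CML-TKI 3, the shallowest library and the one with the most hemoglobin and B cell marker transcripts, was the highest of the 8 for 7 genes, with CML-TKI 2 highest for Cd177 and CML-TKI 4 for Fcnb.

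**Figure D3:**
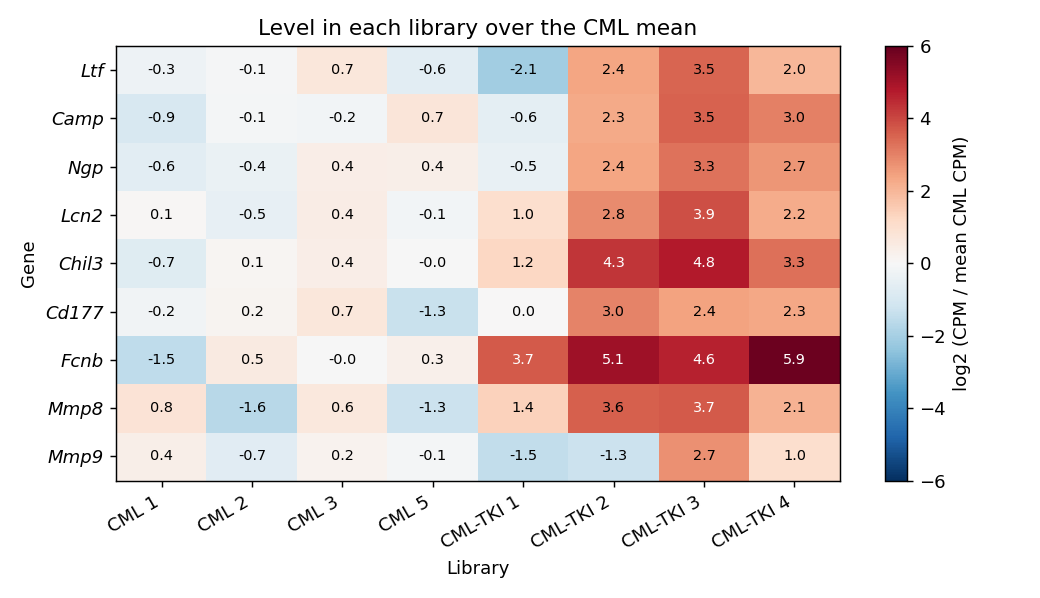
Level of each gene (rows) in each library (columns) as the log2 ratio of its CPM to the CML mean, red for higher and blue for lower. The CML-TKI 1 column runs from blue for Ltf (-2.1) to red for Fcnb (3.7), while every cell of CML-TKI 3 is red.

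Compared per kilobase of transcript, the order of the levels differed between the groups. In CML LSCs the mean CPM per kb was 21.7 for Ngp, 16.97 for Lcn2, 16.5 for Camp, 14.8 for Chil3 and 12.4 for Ltf, and the libraries of each neighbouring pair overlapped. Below these lay Cd177 at 4.67 and Mmp9 at 4.51 CPM per kb, with every library of Cd177 under every library of Ltf. Mmp8 at 2.25 and Fcnb at 0.676 CPM per kb were the lowest. In CML-TKI LSCs Chil3 was first at 217.4 CPM per kb, followed by Lcn2 at 121.5, Ngp at 118.01, Camp at 103.9 and Ltf at 64.6, and then by Cd177 at 22.6, Fcnb at 22.4, Mmp8 at 17.6 and Mmp9 at 10.6. The ranges of each neighbouring pair overlapped in CML-TKI LSCs. Within libraries, Ngp was above Camp and Camp above Ltf in 4 of 4 CML-TKI libraries, and Ltf was above Cd177 and Mmp9 above Mmp8 in 4 of 4 CML libraries, while every other neighbouring pair changed order in at least 1 library of the group.

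Whether the genes changed by different amounts was tested with the log2 ratio of each of the 36 pairs of genes within a library. The groups did not overlap for 11 pairs, 5 of them with Fcnb and 5 with Mmp9. For each of these the exact permutation p was 0.0286, and the smallest p adjusted over the 36 pairs was 0.0935, so no pair passed. Since this test gives no p under 0.0286, a pair that separated alone could not pass after the adjustment. The outcome therefore cannot decide whether the genes changed by different amounts. The ratio of Ltf to Fcnb counts was 23 to 100 in the CML libraries and 0.778 to 19.6 in the CML-TKI libraries. The ratio of Chil3 to Mmp9 counts was 0.756 to 2.68 in the CML libraries and 6.43 to 75.9 in the CML-TKI libraries.

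The other specific and gelatinase granule genes, a list of 24 of which 20 were in the table and 15 were tested, gave 13 called higher and 0 called lower, with a median log2 fold change of 2.92. In 12 of the 15 every CML-TKI library lay above every CML library. Over all genes tested, 10.3% did so and 6.29% were called higher. The 3 largest changes among those called were in Cybb, the catalytic subunit of the phagocyte oxidase (log2 fold change 4.85, adjusted p = 0.00151), Hp, haptoglobin (4.75, adjusted p = 0.00148), and Slpi, a serine protease inhibitor (3.91, adjusted p = 0.00255). Cybb had 4.81 to 23.2 CPM in the CML libraries and 139.2 to 676.5 CPM in the CML-TKI libraries. Hp had 4.83 to 16.8 CPM in the CML libraries and 100.5 to 439.4 CPM in the CML-TKI libraries, with CML-TKI 1 the lowest of its group for all 3. The 2 that were not called, named after their values were seen, were Mmp25 (log2 fold change 0.87), which encodes another metalloproteinase of these granules, and Plaur (1.58), the urokinase receptor.

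The azurophil granule genes, made earlier in the lineage, had 7 of 10 called higher and 0 lower, with a median log2 fold change of 4.29. The share of all genes tested that were called higher was 6.29%. Elane, Ctsg and Ms4a3 of this list, and Slpi, Mmp25 and Adam8 of the previous list, did not reach the count filter in every CML library either. Elane (neutrophil elastase) had a log2 fold change of 8.26, Mpo (myeloperoxidase) 7.94 and Ctsg (cathepsin G) 7.91. The list summed to between 352.1 and 467.02 CPM in CML and between 1885 and 9185 CPM in CML-TKI libraries, and CML-TKI 1 was the lowest of the latter. In CML-TKI 1 Mpo stood at 695 CPM, far above the 2.70 to 25.8 CPM of the CML libraries, while Ltf, Mmp9, Camp, Ngp and Cd177 were at or below their highest CML library. The ratio of each of the 9 late granule genes to Mpo was lower in every CML-TKI than in every CML library. For Ltf it was 0.856 to 11.9 in the CML libraries and 0.0115 to 0.128 in the CML-TKI libraries. Since 98.2% of 11936 genes showed the same against Mpo, this is not a property of the late granule genes.

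Of the transcription factors that act on granule genes, 7 of 8 tested were called higher and 0 lower, where 6.29% of all genes were called higher. Cebpe, which encodes the factor needed for specific granules, had 0.136, 0.193, 0.193 and 2.89 CPM in the CML libraries and 11.8, 19.8, 17.5 and 39.8 CPM in CML-TKI 1 to 4, so the groups did not overlap (log2 fold change 4.61, adjusted p = 0.0164), and it too was under the count filter in CML 1, 2 and 3. Cebpd, also called, did not reach the filter in every CML library. Gfi1, a repressor needed for neutrophil differentiation, had 2.51 to 8.94 CPM in the CML libraries and 20.5 to 82.2 CPM in the CML-TKI libraries (log2 fold change 3.47, adjusted p = 0.00435). Cebpa, the factor of early granulocyte commitment, had 6.13 to 12.9 CPM in the CML libraries and 30.8 to 193.3 CPM in the CML-TKI libraries (log2 fold change 3.83, adjusted p = 0.00264). CML-TKI 1 was the lowest of its group for each of these factors, and CML-TKI 4, which was highest for Fcnb, was highest for Cebpe and Cebpa. The largest change of this list was in Irf8, named after its values were seen, a factor known for the monocyte rather than the granulocyte fate (2.70 to 8.80 CPM in the CML libraries and 71.04 to 356.2 CPM in the CML-TKI libraries, log2 fold change 5.26, adjusted p = 0.00087). The factor that was not called, also named after its values were seen, was Runx1 (log2 fold change -0.27).

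Inhibitors, receptors and relatives of the granule proteins (8 tested) had 4 called higher and 0 lower, where 6.29% of all genes were called higher. Among the 4, Chil1 did not reach the count filter in every CML library. Those named here were picked after their values were seen. Lrp1, an endocytic receptor that clears lactoferrin and the metalloproteinases, was at 4.63 to 22.996 CPM in the CML libraries and 207.3 to 428.9 CPM in the CML-TKI libraries (log2 fold change 4.66, adjusted p = 0.00181). Timp3, an inhibitor of metalloproteinases, had 58.7 to 87.02 CPM in the CML libraries and 1022, 0, 5.48 and 71.8 CPM in CML-TKI 1 to 4. The single high library of Timp3 was thus CML-TKI 1, and Timp3 was not called (log2 fold change 1.89, adjusted p = 0.456).

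Markers of cells that a stem cell gate should not hold were also measured. Over all genes tested, 6.29% were called higher and 3.93% lower. Genes that did not reach the count filter of 2.01 CPM in every CML library depended on CML-TKI libraries to be tested, which favours a call, so the counts below are given as a description. This held for 4 of 9 tested mature neutrophil markers, 6 of 9 monocyte and macrophage markers, all 7 eosinophil markers and all 3 basophil and mast cell markers, and for none of the stem cell, erythroid and megakaryocyte markers. Of the mature neutrophil markers, 4 of 9 tested were called higher (S100a8, S100a9, Retnlg and Csf3r) and 0 lower, with a median log2 fold change of 2.79, and their sum ran from 144 to 212.6 CPM in CML and from 204.9 (CML-TKI 1) to 1814 CPM (CML-TKI 3) in CML-TKI libraries. Ly6g, the surface marker of mature mouse neutrophils, had 0.579 to 1.92 CPM in CML libraries and 0.760, 3.41, 5.48 and 7.54 CPM in CML-TKI 1 to 4, with 3 of the 4 above the highest CML library, and had too few counts to be tested. Of the monocyte and macrophage markers, 8 of 9 tested were called higher, with a median log2 fold change of 5.19. Their sum ran from 22.2 to 42.5 CPM in CML and from 818.8 to 4407 CPM in CML-TKI libraries. All 7 eosinophil markers tested were called higher, with sums of 7.14 to 48.9 CPM in CML and 126.04 to 3425 CPM in CML-TKI libraries, and CML-TKI 3, highest for most late granule genes, was the lowest of its group here, with Prg2, Epx and Ear6 at 0. The basophil and mast cell markers, of which 3 of 7 in the table could be tested and those 3 were called higher, had sums of 4.49 to 6.76 CPM in CML and 59.2 to 1251 CPM in CML-TKI libraries, with Mcpt8 and Cd200r3 at 0 in every CML library. Of the erythroid markers 0 of 7 tested were called, with a sum of 37439 CPM in CML-TKI 3 and at most 680.3 CPM elsewhere. Of the megakaryocyte markers 0 of 7 were called higher and 2 lower. The T and NK cell markers, of which 0 of 3 tested were called, summed to 196.2 CPM in CML-TKI 3 and at most 88.7 CPM elsewhere. The part of these cells in the granule gene levels was not tested.

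**Figure D4:**
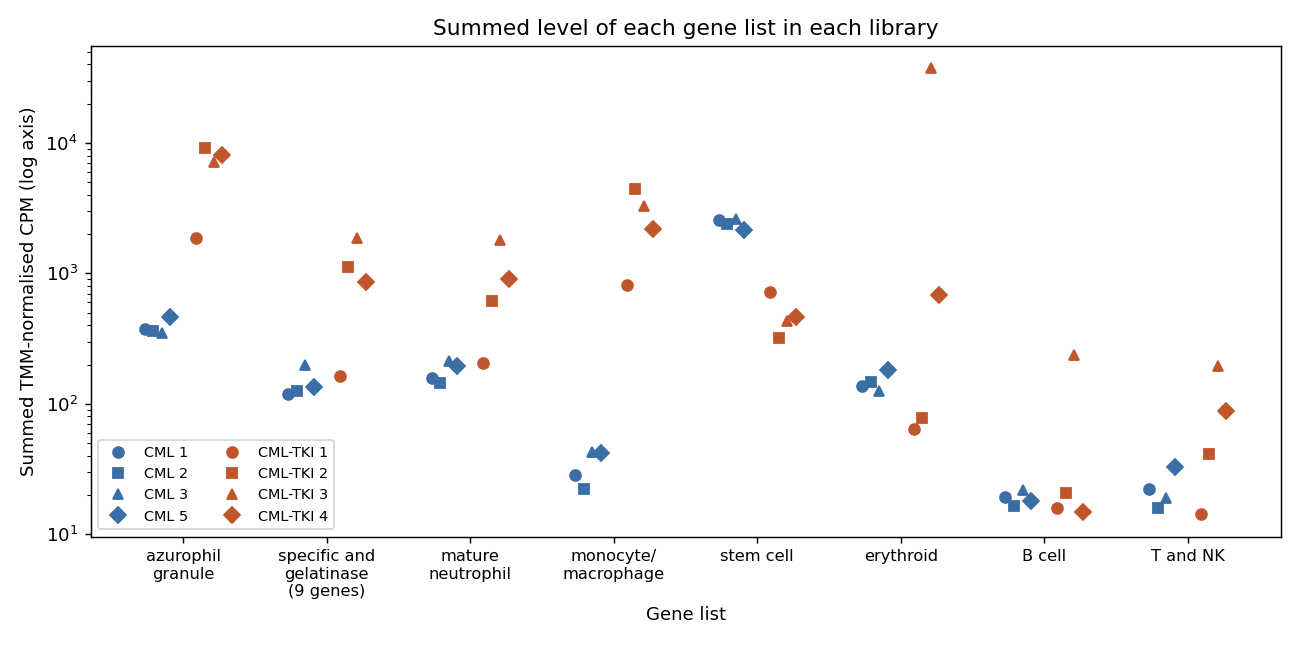
Summed TMM-normalised CPM (log axis) of 8 gene lists in each library, blue for CML and orange for CML-TKI, with symbol shapes for the library numbers. The 9 late granule genes sum to 162.4 CPM in CML-TKI 1, within the CML range of 119.98 to 197.7 CPM, whereas the azurophil genes sum to 1885 CPM there, above every CML library, and the erythroid sum of CML-TKI 3 (37439 CPM) stands alone.

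The genes most like the late granule genes were found by the root mean square distance between each gene's centred log2 CPM profile over the 8 libraries and the mean profile of the 9. The nearest 5 of the other genes were S100a9 (distance 0.27 on the log2 scale), Ifitm6 (0.32), S100a8 (0.33), Idh1 (0.34) and Far2 (0.36). S100a8 and S100a9 encode the subunits of calprotectin, the abundant calcium-binding complex of neutrophil cytosol, and both were on the mature neutrophil list. S100a9 had 17.8 to 27.6 CPM in the CML libraries and 33.8, 115.9, 327.7 and 200.6 CPM in CML-TKI 1 to 4, with the same order of CML-TKI libraries as Camp and Ngp. Within the 9 genes, Lcn2 (0.34) and Ngp (0.35) lay closest to the mean profile and Fcnb (1.23) and Mmp9 (1.33) furthest from it. The 8 points share their libraries and depth, and the distances are given as a description.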

How the data were processed

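Bulk RNA-seq of 4 CML and 4 CML-TKI LSC libraries was analysed. Per the labels and the paper's methods, RNA was isolated with the RNeasy Plus mini kit, libraries were made with Nextera XT, and paired reads were aligned to mm10 with STAR 2.6.1d and quantified to RefSeq transcripts in Partek Flow (Partek 8.0 in the submitters' processing notes). The values deposited by the authors are estimated counts per gene, not normalized, and strand use in counting is not given in the sources used here. The table had 15576 gene rows, of which 5 had no count and 20 symbols had been turned into dates.

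Columns were matched to labels by group and number. The CML column numbered 5 carries a number that no label gives and was kept in the CML group, unnumbered.

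Estimated counts were rounded to whole numbers. In R 4.3.3, edgeR 4.0.16 was run with TMM factors, robust quasi-likelihood fits, a low-count filter (filterByExpr, at least 10 counts and 15 in total) and Benjamini-Hochberg adjustment over the 11937 genes tested, with a threshold of 0.05. CPM were scaled by TMM, with a prior count of 2 on the log2 scale. Standard errors are from the fitted log2 fold change and its F statistic. The fits were tested on simulated counts with the same dispersion for every gene and no library set apart. Such a simulation does not cover the uneven spread between these libraries. DESeq2 1.42.0 and limma 3.58.1 (voom with quality weights), other normalizations, filters, thinning to 1041552 counts and omission of libraries were alternatives. Lengths were those of the longest GENCODE transcript on GRCm38, and positions and promoters came from RefSeq on GRCm38.p6. Library totals ranged from 1041552 to 8620101 counts, and floors cover counting error only, since reads without molecular identifiers are not independent molecules.

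The genes, gene lists, tests and most alternatives were chosen with earlier results of these data known. All 9 genes were named, together with the 3 largest changes called in each other granule list, Cebpe, Gfi1 and Cebpa, and the 5 most alike genes. Other genes were named after their values were seen. The study's other experiments were not analysed here.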

Additional observations from a re-analysis of the deposited data

How the results depend on the processing

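Of the 9 genes, 8 had a log2 fold change above 0 in all 21 alternatives, Mmp9 being the exception. The number called was 7, and it was 2 at an adjusted p under 0.01, 1 when CML 1 to 3 were summed to 1 library (Fcnb) and 3 to 8 when 1 library was left out. Ltf was called in 3 of 21 alternatives, Camp and Cd177 in 8, Ngp in 10, Mmp8 in 11, Lcn2 in 17, Chil3 in 18 and Fcnb in 20. Mmp9 was at -0.12 without CML-TKI 3 and between -0.12 and 1.52 with 1 library left out. Over all genes, 1220 were called (751 higher, 469 lower), and 395 were at an adjusted p under 0.01. DESeq2 called 2157 (1154 higher, 1003 lower), voom 2563 (1249 higher, 1314 lower), the summed CML libraries 122, the fit without both CML-TKI 1 and CML-TKI 3 3262 (1305 higher, 1957 lower), and fits without 1 library 505 (without CML 1) to 2504 (without CML-TKI 1). The summed libraries gave 3 calls among the other specific and gelatinase granule genes. The median over all genes tested shifted to -0.11 on the log2 scale with voom and to -0.12 with Rn45s removed and total counts in place of TMM, which gave 610 higher and 561 lower calls, while total counts with Rn45s kept gave 688 higher and 349 lower. The cause of these shifts was not tested. Fcnb had only 2 to 7 counts in the CML libraries, which limits the precision of its level there.

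The numbers 1 to 3 that both groups share gave correlations of deviations of -0.0224, 0.152 and 0.0908 between same-numbered libraries, so they were not taken as pairs, and not every library correlated best with its own number. With the replicate block on these 6 libraries edgeR called 0 of the 9 genes (7 at an unadjusted p under 0.05 in either direction, as were 18.3% of all genes), 165 of all genes, 4 of the other specific and gelatinase granule genes and 4 azurophil genes, with Mmp9 at -0.057 and the median of all genes at -0.13. Without the block the same 6 libraries gave 1 of the 9 genes (Fcnb) and 589 of all genes. On all 8 libraries DESeq2 had 8 of the 9 genes and 28.6% of all genes at an unadjusted p under 0.05, and voom 7 of the 9 and 34.4% of all genes.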
